A study of Mus musculus with 15 samples.

Results

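Delta cells and alpha cells of the mouse pancreatic islet were compared through the RNA of 6 sorted delta cell samples and 5 sorted alpha cell samples, which make up 11 of the 15 samples of the series. The samples were taken by their labels, and genes entered the comparison where the mean exceeded 1 FPKM (fragments per kilobase of transcript per M mapped reads, a level relative to the rest of the library) in alpha or in delta cells, which left 13792 of the 38283 genes in the deposited table. Alpha cells were the Venus-positive cells of Glu-Venus mice, in which the proglucagon promoter drives the fluorophore Venus. Delta cells were the EYFP-positive cells of Sst-Cre/Rosa26EYFP mice, in which Cre made from the Sst promoter switches on EYFP from the Rosa26 locus, so a cell stays marked once Cre has acted in it or in a cell it came from. Both lines were on a C57BL/6 background, no group received a treatment, and the age and sex of the animals behind the sequenced samples are not given in the sources used here. Each sample was sorted from the pooled islets of several mice, so the replicate error given here is that of pools rather than of single animals. Cell type and mouse line cannot be told apart in this design. Beta cells (4 samples from Glu-Venus mice) entered the model only for its estimate of the spread.

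Islet hormones are released by neighbouring cells that read each other's signals. Alpha cells secrete glucagon, which raises hepatic glucose output. Delta cells secrete somatostatin, which acts over short distances on somatostatin receptors to restrain glucagon and insulin release. Both are electrically excitable endocrine cells that share a developmental origin with beta cells, and lineage transcription factors such as Hhex in delta cells are known to hold their identities.

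Sst and Gcg are the genes whose promoters marked the cells for sorting, so their values are a check of the labels. Sst (GRCm38 chr16:23889573-23890958, minus strand) was at 1177, 1789, 2427, 1139 and 1564 FPKM in the 5 alpha samples and at 101490.0 to 266280.0 FPKM (median 122410.0) in the 6 delta samples. Gcg (chr2:62474530-62483650, minus strand) was at 211810.0, 344950.0, 333560.0, 184430.0 and 290640.0 FPKM in the alpha samples and at 236 to 767 FPKM (median 526) in the delta samples. Neither hormone overlapped between the cell types, each had the largest difference in its direction among the called protein-coding genes without overlap, and every sample matched its label. The mean of Sst in alpha cells was 0.992% of that in delta cells, and the mean of Gcg in delta cells was 0.189% of that in alpha cells. In sorted bulk samples a few cells of the other type and a little RNA in every cell cannot be told apart. The 250 bases before the RefSeq start of each of these genes are printed because both promoters served to mark the cells, with the cyclic AMP response element TGACGTCA and the homeodomain core TAAT (or ATTA on the other strand) in capitals.
Sst promoter, chr16:23890845-23891094, minus strand, GRCm38.p6: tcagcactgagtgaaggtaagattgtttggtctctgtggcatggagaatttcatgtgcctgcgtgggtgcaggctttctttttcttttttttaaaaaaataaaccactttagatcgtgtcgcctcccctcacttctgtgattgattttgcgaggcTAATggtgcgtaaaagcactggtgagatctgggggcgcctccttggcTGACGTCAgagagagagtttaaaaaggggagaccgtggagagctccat
Gcg promoter, chr2:62483654-62483903, minus strand, GRCm38.p6: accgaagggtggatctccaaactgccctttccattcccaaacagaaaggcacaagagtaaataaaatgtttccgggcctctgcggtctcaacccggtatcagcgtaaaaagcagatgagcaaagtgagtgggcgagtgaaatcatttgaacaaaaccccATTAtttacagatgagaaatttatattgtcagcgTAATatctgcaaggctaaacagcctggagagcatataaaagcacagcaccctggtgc
The Sst promoter holds 1 full response element that begins 48 bases before the start, and the Gcg window holds none. Both strands were searched. TGACGTCA occurred in 14 of the 516 matched promoters of genes higher in delta cells (2.71%), in 4 of the 137 of genes lower there (2.92%), in 3.30% of the promoters of all genes tested and in 1.77% of all 27025 promoters of that table. TAAT or ATTA occurred in 42.8% of the promoters of genes higher in delta cells, 48.2% of those lower there, 43.5% of those tested and 58.5% of all promoters.

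**Figure D1:**
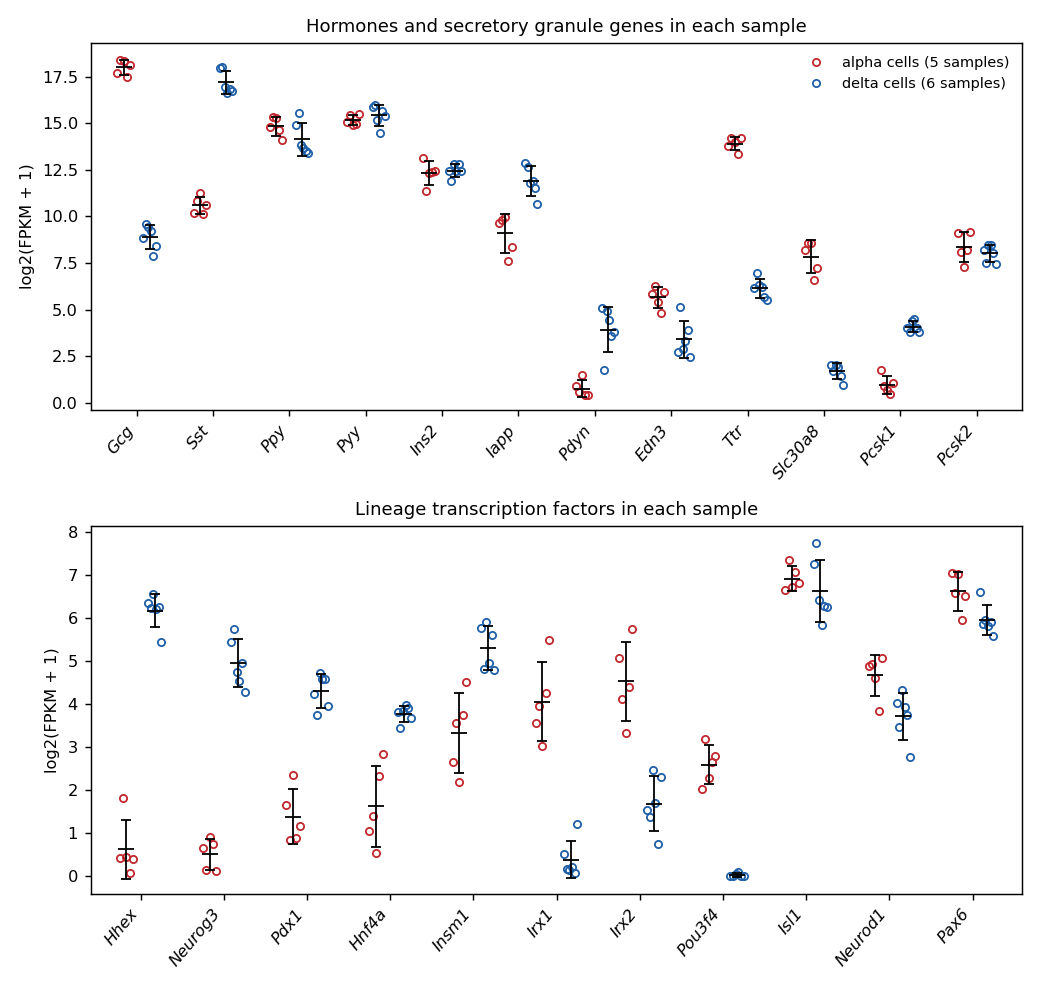
Level of hormone and granule genes (top) and of lineage transcription factors (bottom) in each sample, as log2(FPKM + 1). Open circles are samples, and bars give the mean and SD of the 5 alpha or 6 delta samples. The alpha and delta circles of Gcg, Sst, Ttr, Slc30a8, Pcsk1, Hhex, Neurog3 and Pou3f4 lie apart, while those of Pyy, Ins2, Pcsk2, Isl1 and Pax6 overlap.

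Differences were tested with limma, a linear model with moderated variances, on log2(FPKM + 1), and an adjusted p below 0.05 (Benjamini-Hochberg over the 13792 genes) is a call. Differences are delta minus alpha on this scale unless they are given as ratios of mean FPKM, and the scale understates changes of genes with low values. Of the 13792 genes, 987 were called (7.16%), of which 775 were higher in delta cells (5.62% of the genes tested) and 212 were lower (1.54%). In 737 of the 987 the 5 alpha and 6 delta values did not overlap. A call itself favours values that lie apart, so this count is no separate support. The share of calls that were higher in delta cells was 78.5%, and it was 67.8% with median-ratio size factors and 55.8% with quantile normalization, 2 other ways to scale the samples. Of the 13792 genes, median-ratio size factors called 721 higher and 343 lower, and quantile normalization 621 and 491. These numbers, rather than 775 and 212, are the background of list counts given with either other scaling. The median difference of all genes tested was 0.14, and it was 0.01 and -0.05 with these scalings, so the balance of directions depends on the scaling, while no called gene named with a value here changed direction with it. Of the genes called higher in delta cells, 443 had a mean of at most 1 FPKM in alpha cells, and 122 of those called lower had such a mean in delta cells. Such genes passed the filter only through the cell type where they are high. The filter admitted 1705 genes through delta cells alone and 966 through alpha cells alone.

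Genes listed above 0 FPKM numbered 14761 to 17122 in alpha samples and 16342 to 18559 in delta samples, and their part in the differences was not tested. Summed FPKM of ribosomal protein genes was above 50000 in alpha samples 1 to 3 and delta samples 1 and 2 and below it in the other samples, and these sets cut across the cell types. Within each set every delta sample had more genes above 0 than every alpha sample. Xist and Eif2s3y, which are expressed in female and male cells respectively, split both cell types and were not called (limma adjusted p = 0.914 and 0.937).

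**Figure D2:**
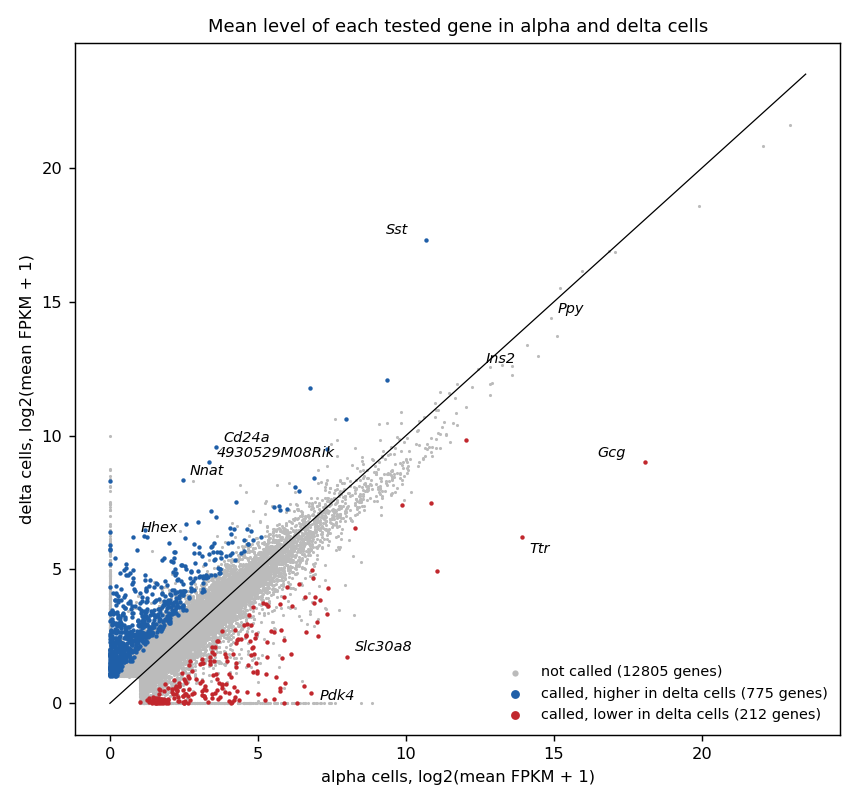
Mean level of each of the 13792 tested genes in alpha cells (horizontal) and delta cells (vertical), as log2(mean FPKM + 1), with the line of equal levels. Blue points are the 775 genes called higher in delta cells, red points the 212 called lower and grey points the genes not called. Gcg, Ttr and Slc30a8 lie far below the line and Sst, Cd24a and Nnat far above it, while Ppy and Ins2 lie close to it.

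Beside Sst, the protein-coding genes with the largest differences toward delta cells, among those without overlap, were the overlapping locus 4930529M08Rik (6.51), the small surface glycoprotein gene Cd24a (6.07), the imprinted gene Nnat (6.02), Hhex (5.54), the secreted Wnt antagonist gene Frzb (5.10), Sez6l (5.10), the proteoglycan gene Spock1 (4.91), Fam159b (4.88), the hyaluronan receptor gene Cd44 (4.65), Fstl5 (4.48), Dlk1 (4.45), Neurog3 (4.44), Tmed6 (4.26) and Rasgrf1 (4.20). Cd24a was at 8.85, 8.63, 24.2, 4.42 and 8.72 FPKM in the alpha samples and at 297 to 1132 FPKM (median 743) in delta samples, with every alpha sample far below the lowest delta sample. The reads of 4930529M08Rik could not be told apart from those of Crnkl1, which it overlaps. Toward alpha cells the corresponding genes after Gcg included Ttr (-7.76), Pdk4 (-6.39), Slc30a8 (-6.14), the thymosin genes Tmsb15b2 and Tmsb15l (-6.04 and -5.36), Higd1a (-5.05), Fap (-4.94), Dapl1 (-4.80), Kctd12b (-4.63), Lpl (-4.52), Slc7a2 (-4.43) and Ociad2 (-4.26). The thymosin genes are near-identical copies, so how reads were split between them is uncertain. Over the 15 genes of each direction, the mean in the lower cell type was 0.916% to 4.72% of that in the higher one for genes high in delta cells (median 1.44%) and 0.189% to 3.79% for genes high in alpha cells (median 0.841%).

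Among the 16 measured genes of islet hormones and other secreted peptides, 3 were higher in delta cells and 2 were lower (18.8% and 12.5%, against 5.62% and 1.54% of all genes tested), with a median difference of 0.37. Prodynorphin (Pdyn), the precursor of dynorphin opioid peptides, was at 0.850, 0.494, 1.76, 0.315 and 0.339 FPKM in the alpha samples and at 2.37 to 32.4 FPKM (median 16.8) in the delta samples (3.17, SE 0.590, limma adjusted p = 0.00227). Every delta sample was above every alpha sample. Amylin (Iapp), a peptide usually described with insulin, was 6.68-fold higher in delta cells, at 1629 to 7599 FPKM against 194 to 1019.8 FPKM in alpha cells (2.82, SE 0.655, limma adjusted p = 0.0122). Endothelin (Edn3) was lower in delta cells, at 12.2 ± 11.2 FPKM against 52.3 ± 18.7 FPKM (mean ± SD, n = 6 and 5, -2.26, SE 0.436, limma adjusted p = 0.00312), and its highest delta sample overlapped the alpha samples. Pancreatic polypeptide (Ppy) and peptide YY (Pyy) were among the most abundant hormone transcripts in the sorted samples of both cell types. Ppy is also the marker of PP cells, and whether RNA of such cells had a part in its values was not tested. Ppy was at 30424 ± 9881 FPKM in alpha cells and 21473 ± 15141 FPKM in delta cells (limma adjusted p = 0.565), and Pyy at 37759 ± 6973 and 46749 ± 15881 FPKM (limma adjusted p = 0.824). The insulin genes overlapped between the groups, with Ins2 at 5534 ± 2308 FPKM in alpha and 5768 ± 1276 FPKM in delta cells (limma adjusted p = 0.931) and Ins1 at 2026 ± 966 and 1670.5 ± 522 FPKM (limma adjusted p = 0.87). Of the 10 measured beta cell markers, Iapp and Glp1r were called, both higher in delta cells, and 4 had negative differences (2 were called lower with either other scaling), and the summed FPKM of the whole list was 4653 to 13650 in alpha and 8223 to 14870 in delta samples. Whether beta cell RNA had a part in these values was not tested. Ghrelin (Ghrl) was below the filter in both cell types, at 0 to 1.10 FPKM across delta samples.

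The zinc transporter of the granule and 1 of the main enzymes that cut prohormones separated the cells. Of 24 measured genes of granule proteins and prohormone processing, 5 were higher in delta cells and 2 lower (20.8% and 8.33%, median difference 0.39). Slc30a8 encodes the zinc transporter of the granule membrane. It was at 289, 376, 384, 96.9 and 149 FPKM in the alpha samples and at 0.922 to 3.14 FPKM (median 2.58) in the delta samples, 110.4-fold higher in alpha cells (-6.14, SE 0.480, limma adjusted p = 3.88e-07). The convertase Pcsk1 was at 2.36, 0.842, 0.589, 0.365 and 1.07 FPKM in alpha and at 12.7 to 21.4 FPKM (median 15.1) in delta samples (3.12, SE 0.384, limma adjusted p = 5.01e-05), whereas the convertase Pcsk2 was at 368 ± 185 FPKM in alpha and 268 ± 78.7 FPKM in delta cells (limma adjusted p = 0.749). Pcsk1 thus separated the cell types in every sample and Pcsk2 overlapped. Cpb2, a carboxypeptidase gene best known from plasma, was at 0 to 0.449 FPKM in alpha samples and at 8.68 to 30.2 FPKM in delta samples (3.78, SE 0.381, limma adjusted p = 7.05e-06), and Pcsk6 was also higher in delta cells (1.89, SE 0.342, limma adjusted p = 0.00181). The granin genes were less firm. Chgb was at 42.4, 21.9, 17.2, 589 and 584 FPKM in alpha and 189 to 3047 FPKM (median 1894) in delta samples, with overlap. In both cell types its values were lower in the samples with high ribosomal sums (alpha 1 to 3, delta 1 and 2). The difference was 3.36 within that set and 1.90 within the low set. Chgb had a call (limma adjusted p = 0.0428) that 11 of the 21 alternative analyses did not make (adjusted p from 0.0183 to 0.136 over the 21). Scg2 (2.16, SE 0.563, limma adjusted p = 0.0257) lost its call in 6 of them and Vgf, which was lower in delta cells (-1.16, SE 0.318, limma adjusted p = 0.0336), in 3, among them the fit without alpha sample 2 (limma adjusted p = 0.0638).

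Lineage transcription factors gave some of the clearest separations. Of 57 measured factors, 11 were higher in delta cells and 7 lower (19.3% and 12.3%), with a median of 0.48. The counts became 10 and 9 with median-ratio size factors and 8 and 9 with quantile normalization. Hhex, a homeobox factor that delta cells require, was at 0.334, 2.55, 0.357, 0.0490 and 0.320 FPKM in alpha samples and 42.1 to 93.2 FPKM (median 74.7) in delta samples, 101-fold higher (5.54, SE 0.322, limma adjusted p = 4.24e-08). Neurog3, known as the switch of endocrine progenitors, was at 0.568, 0.106, 0.869, 0.673 and 0.0811 FPKM in alpha samples and 18.4 to 52.5 FPKM (median 28.0) in delta samples (4.44, SE 0.293, limma adjusted p = 8.75e-08). Both factors were near or below 1 FPKM in 4 or more of the 5 alpha samples and above 18 FPKM in every delta sample. Pdx1, a homeobox factor shared by beta and delta cells, was at 2.16, 0.780, 4.14, 0.858 and 1.23 FPKM against 12.4 to 25.3 FPKM (median 20.3) (2.92, SE 0.348, limma adjusted p = 3.54e-05). Hnf4a (2.14), Mlxipl, the carbohydrate response factor ChREBP (3.03), and the endocrine zinc finger factor Insm1 (1.97) were likewise higher in delta cells, without overlap. Of the factors that were lower in delta cells, Pou3f4, the alpha cell factor Brn-4, was at 3.10, 8.15, 3.85, 5.27 and 5.92 FPKM in alpha samples and 0 to 0.0746 FPKM in delta samples (-2.56, SE 0.244, limma adjusted p = 3.67e-06), below 1 FPKM in every delta sample. The Iroquois homeobox factors Irx1 (-3.66) and Irx2 (-2.83) were also lower, and of these 3 only Irx2 kept more than 2 FPKM in the mean of delta cells (2.48 FPKM against 25.96). Isl1, Pax6, Nkx2-2 and Neurod1, factors known from several islet cell types, were not called. Isl1 was at 121 ± 25.9 FPKM in alpha and 109 ± 60.3 FPKM in delta cells, Pax6 at 101 ± 29.2 and 62.3 ± 17.1 FPKM, Nkx2-2 at 125 ± 83.1 and 96.7 ± 34.7 FPKM and Neurod1 at 25.3 ± 7.43 and 12.8 ± 4.48 FPKM. Their limma adjusted p values were 0.84, 0.408, 0.886 and 0.221, and Neurod1 was called lower in delta cells with both other scalings.

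**Figure D3:**
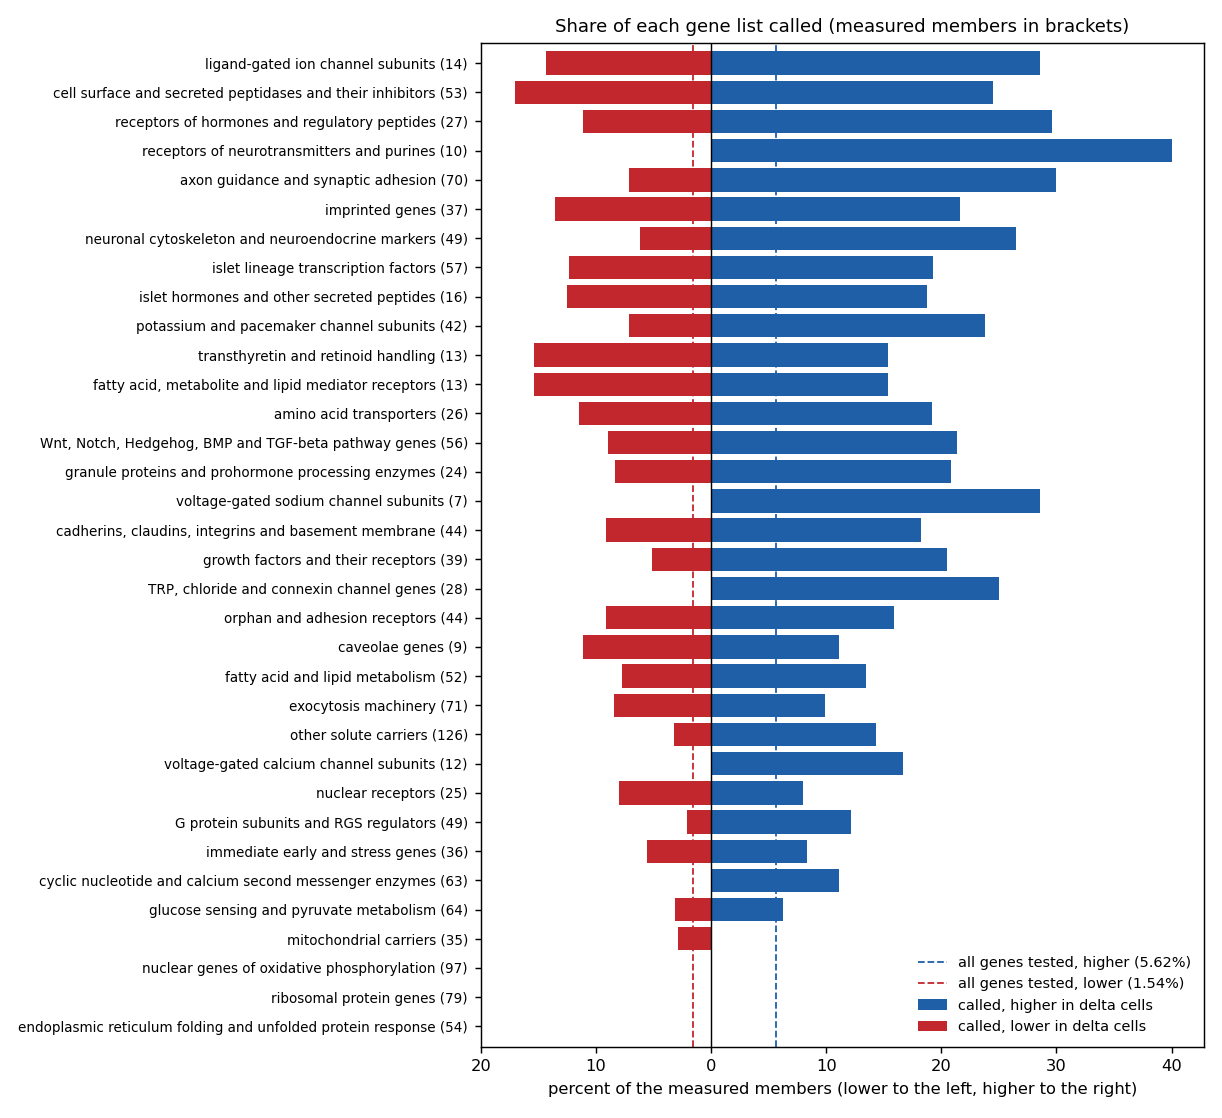
Percent of the measured members of each gene list called higher (blue, to the right) or lower (red, to the left) in delta cells, with the number of measured members in brackets and dashed lines at the 5.62% and 1.54% of all genes tested. The lists of transmitter and purine receptors, axon guidance genes and hormone receptors reach 29.6% to 40.0% higher, and the ribosomal, oxidative phosphorylation and unfolded protein response lists have no bar.

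Receptors for hormones and regulatory peptides were called in 11 of 27 measured cases, 8 higher in delta cells (29.6%, against 5.62% of all genes tested) and 3 lower (11.1%, against 1.54%). Ghsr, the ghrelin receptor, was at 0.104, 0.0345, 0.544, 0.0251 and 0.0804 FPKM in alpha samples and at 10.6, 14.7, 12.6, 12.9, 13.1 and 6.37 FPKM in delta samples 1 to 6 (3.43, SE 0.247, limma adjusted p = 1.72e-07). Glp1r, the receptor of glucagon-like peptide, was at 2.19, 1.45, 1.203, 4.09 and 2.84 FPKM in alpha samples and 16.4 to 59.7 FPKM (median 38.1) in delta samples (3.56, SE 0.362, limma adjusted p = 7.33e-06). Neither receptor overlapped between the cell types, and the mean of Ghsr in alpha cells was 1.35% of that in delta cells while that of Glp1r was 5.92%. The urocortin receptor Crhr2 was at 0 to 0.0523 FPKM in alpha and 1.06 to 4.68 FPKM in delta samples (1.66, SE 0.271, limma adjusted p = 0.000732), and Ramp1, the partner of calcitonin family receptors, was 5.96-fold higher in delta cells (2.31, SE 0.548, limma adjusted p = 0.0138). Vipr1, a receptor of vasoactive intestinal peptide, was lower in delta cells, at 0.263 to 2.12 FPKM against 7.62 to 17.1 FPKM (-2.51, SE 0.318, limma adjusted p = 6.56e-05). The vasopressin receptors went in opposite directions. Avpr1a was at 0, 0, 0.0439, 0.0232 and 0.0187 FPKM in alpha samples and 5.71 to 10.3 FPKM (median 7.55) in delta samples (3.07, SE 0.213, limma adjusted p = 1.26e-07). Avpr1b was at 7.18, 9.36, 4.07, 8.22 and 8.87 FPKM in alpha samples and 0 to 0.492 FPKM (median 0.277) in delta samples (-2.76, SE 0.248, limma adjusted p = 1.94e-06). Each subtype was below 1 FPKM in every sample of the cell type where it was low.

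Receptors for somatostatin itself also differed by subtype. Sstr1 was higher in delta cells, at 0.523 to 2.64 FPKM (median 1.62) against 0.0516, 0, 0.359, 0 and 0 FPKM in alpha samples (1.19, SE 0.261, limma adjusted p = 0.00819), a call that was lost with quantile normalization. Sstr2 was higher in alpha cells, at 3.30, 3.20, 0.549, 2.34 and 3.17 FPKM against 0.123 to 0.665 FPKM (median 0.372) in delta samples (-1.28, SE 0.292, limma adjusted p = 0.0107), and alpha sample 3 overlapped the delta range. Sstr3 was the most abundant subtype in both, at 14.2 ± 6.19 FPKM in alpha and 19.2 ± 2.60 FPKM in delta cells (limma adjusted p = 0.445). Sstr4 was listed at 0 in all 11 samples and Sstr5 at 0 in all but delta sample 3 (0.218 FPKM). Gcgr, the glucagon receptor, was below the filter, listed at 0 in the 5 alpha samples and at 0.817, 0.351, 0.372, 0.814, 0.307 and 0.0347 FPKM in delta samples 1 to 6. Gipr was at 2.14 ± 2.29 FPKM in alpha and 1.69 ± 0.846 FPKM in delta cells (limma adjusted p = 0.979). In two-sided exact permutation tests of single receptors, 0.00433 is the smallest p that 5 against 6 samples allow. Ghsr, Sstr1, Avpr1b, Gpr81, P2ry1, Glp1r and Gcgr reached that value (0.00742 after adjustment over the 12 receptors tested). Gcgr, which is below the filter, had limma adjusted p of 0.364 to 0.444 in the 2 alternatives that tested it. In the same exact test Sstr2 gave 0.013 (adjusted 0.0173), Ffar3 0.00866 (adjusted 0.013), Sstr3 0.0909 (adjusted 0.109), and Sstr5 and Gipr 1.0 after adjustment. These receptors were chosen because the study, which used these same samples, names them, so the exact tests add no separate support.

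**Figure D4:**
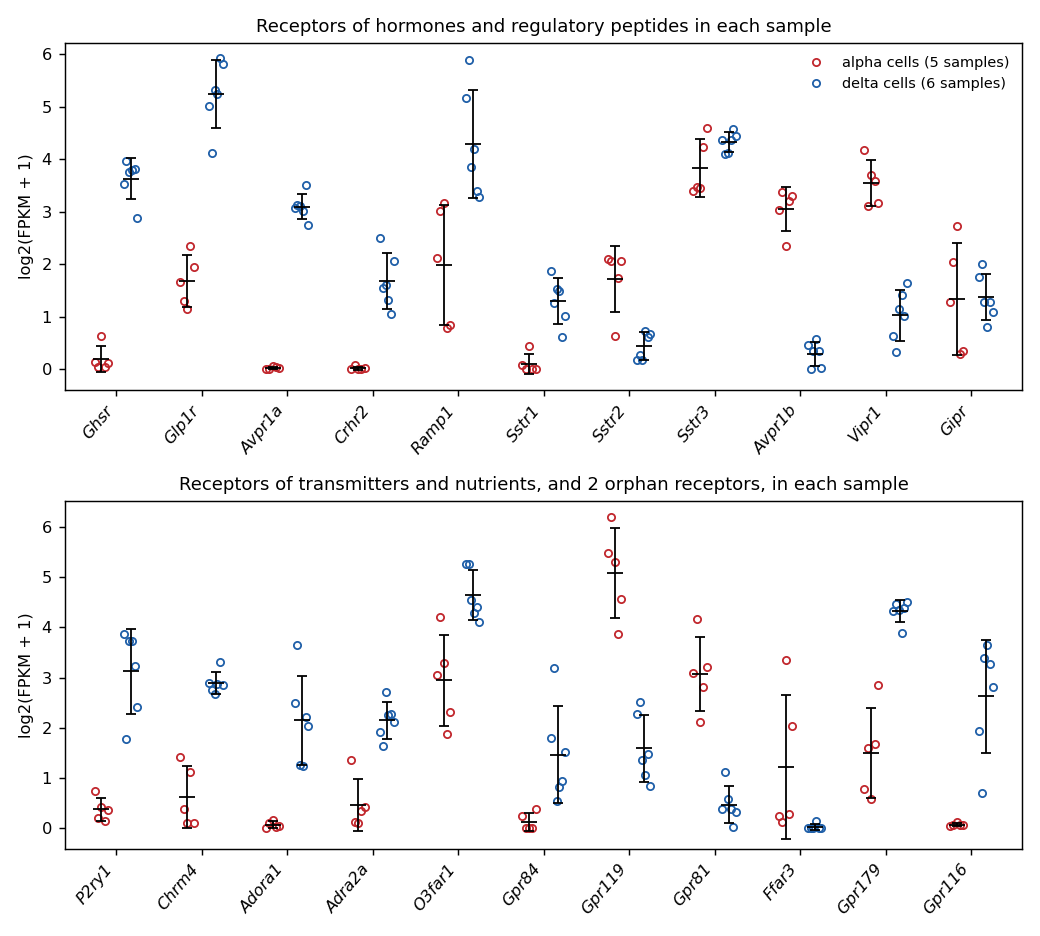
Level of hormone receptors (top) and of transmitter, nutrient and orphan receptors (bottom) in each sample, as log2(FPKM + 1). Circles are samples, and bars give the mean and SD of 5 alpha or 6 delta samples. Ghsr, Glp1r, Avpr1a, Crhr2, P2ry1 and Chrm4 have all delta circles above all alpha circles, Avpr1b, Vipr1, Gpr119 and Gpr81 show the reverse, and Sstr3 and Gipr overlap.

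Receptors for transmitters and purines that couple to G proteins were called in 4 of 10 measured cases, all higher in delta cells (40.0%). P2ry1, an ADP receptor, was at 0.666, 0.154, 0.352, 0.111 and 0.287 FPKM in alpha samples and 2.43 to 13.5 FPKM (median 10.3) in delta samples (2.74, SE 0.415, limma adjusted p = 0.000371). The muscarinic receptor Chrm4 was at 1.70, 0.301, 0.0706, 1.17 and 0.0826 FPKM against 5.42 to 8.91 FPKM (median 6.28) (2.27, SE 0.286, limma adjusted p = 6.20e-05). The adenosine receptor Adora1 (2.07, SE 0.383, limma adjusted p = 0.00213) and the adrenergic receptor Adra2a (1.68, SE 0.316, limma adjusted p = 0.00249) followed, also without overlap. Receptors for fatty acids and metabolites split evenly, with 2 of 13 higher and 2 lower in delta cells (15.4% each) and a median of -0.01, and with 1 and 3 under quantile normalization. Gpr119, which senses fatty acid amides, was at 43.6, 72.2, 38.6, 13.6 and 22.8 FPKM in alpha samples and 0.803 to 4.74 FPKM (median 1.68) in delta samples (-3.49, SE 0.534, limma adjusted p = 0.000405). Gpr81 (Hcar1), the lactate receptor, was at 7.56, 16.9, 3.36, 6.02 and 8.27 FPKM against 0.0207 to 1.18 FPKM (median 0.305) (-2.61, SE 0.323, limma adjusted p = 5.33e-05). Both alpha cell receptors were free of overlap. O3far1 (Ffar4), a receptor of long-chain fatty acids, was 3.14-fold higher in delta cells with 1 alpha sample inside the delta range (1.69, SE 0.383, limma adjusted p = 0.0103), and the higher level of Gpr84 in delta cells (1.34, SE 0.388, limma adjusted p = 0.0472) was not called in 10 of the alternatives, where limma adjusted p ran from 0.00875 to 0.166 over the 20 that tested it. Ffar3, a receptor of short-chain fatty acids, was uneven among alpha samples, at 0.190, 0.0956, 9.21, 0.219 and 3.13 FPKM, and was listed at 0 in 5 of the 6 delta samples (limma adjusted p = 0.221). Among 44 orphan and adhesion receptors, a list that shares Gpr119, Gpr81 and Gpr84 with the one above, 7 were higher and 4 lower (15.9% and 9.09%), and 3 and 4 with quantile normalization. Gpr179 was at 19.1 ± 2.77 FPKM in delta and 2.34 ± 2.31 FPKM in alpha cells (2.82, SE 0.346, limma adjusted p = 5.01e-05), the adhesion receptors Gpr116 (Adgrf5) and Bai3 (Adgrb3) were higher in delta cells (2.55 and 1.68), and the latrophilin Lphn3 (Adgrl3) was lower (-1.54, SE 0.329, limma adjusted p = 0.00702).

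Downstream of the receptors, 6 of 49 G protein subunits and RGS regulators were higher in delta cells and 1 was lower (12.2% and 2.04%, against 5.62% and 1.54% of all genes tested, and 6 and 2 with median-ratio size factors and 4 and 2 with quantile normalization). The lower one was Gnai1, an inhibitory alpha subunit, at 53.5, 53.2, 58.1, 20.5 and 44.7 FPKM in alpha samples and 2.66 to 7.10 FPKM (median 5.33) in delta samples (-2.86, SE 0.478, limma adjusted p = 0.000927). Rgs9, which speeds the turn-off of G proteins, was 8.51-fold higher in delta cells (2.83, SE 0.363, limma adjusted p = 7.48e-05). Of 63 cyclic nucleotide and calcium messenger enzymes 7 were higher (11.1%) and none was lower in this fit, although 4 were called lower with quantile normalization. The phosphodiesterase Pde7b was at 10.6 ± 3.68 FPKM in delta and 0.645 ± 0.598 FPKM in alpha cells (2.802, SE 0.453, limma adjusted p = 0.000666). The adenylyl cyclases Adcy8 and Adcy2 were at 1.44 to 3.36 FPKM and 1.56 to 2.53 FPKM in delta samples and at 0 to 0.0894 FPKM and 0 to 0.129 FPKM in alpha samples (1.76 and 1.52). Gucy2c, the guanylyl cyclase that binds guanylin, was higher in delta cells with 1 alpha sample in their range (1.66, SE 0.301, limma adjusted p = 0.00191).

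Of 12 voltage-gated calcium channel subunits, 2 were higher in delta cells and none lower (16.7% and 0%, against 5.62% and 1.54% of all genes tested). Cacna1h, a low-voltage-activated pore subunit, was at 0.0183, 0.352, 0.0110, 0.138 and 0.280 FPKM in alpha samples and 11.3 to 25.8 FPKM (median 20.2) in delta samples, 122.9-fold higher (4.11, SE 0.253, limma adjusted p = 5.09e-08). The auxiliary subunit Cacna2d2 was at 0.0944, 0.559, 0.0250, 1.13 and 1.75 FPKM against 4.54 to 39.3 FPKM (median 29.5) (3.61, SE 0.523, limma adjusted p = 0.000253). Both separated all samples. Of 7 sodium channel subunits 2 were higher (28.6%), the auxiliary Scn3b (2.27, SE 0.381, limma adjusted p = 0.000956) and the pore subunit Scn9a, whose call (1.54, SE 0.429, limma adjusted p = 0.0377) was absent from 9 alternatives (limma adjusted p from 0.026 to 0.108 over the 21). Potassium and pacemaker channels gave 10 higher and 3 lower of 42 measured (23.8% and 7.14%, and 7 and 4 with quantile normalization). Kcnd2, a pore subunit of A-type currents (1.97), its binding partner Kcnip1 (3.07), Kcna5 (1.90) and the inward rectifier Kcnj13 (1.90) were higher in delta cells. Kcnh6, an ERG-family pore subunit, was at 9.37, 5.72, 2.09, 16.4 and 15.5 FPKM in alpha samples and 0.0603 to 0.252 FPKM (median 0.0856) in delta samples (-3.004, SE 0.373, limma adjusted p = 5.63e-05), while its relatives Kcnh7 (0.9998, SE 0.261, limma adjusted p = 0.0257, lost with quantile normalization) and Kcnh2 (1.40, SE 0.399, limma adjusted p = 0.0426, lost in 13 of the 21 alternatives, range 0.01 to 0.114) were higher. Kcnip3 (-2.89) and Kcnj3, a pore subunit of G protein-gated channels (-1.29), were also lower in delta cells. The subunits of the ATP-sensitive channel were not called. Abcc8 was at 38.3 ± 24.3 FPKM in alpha and 95.6 ± 32.5 FPKM in delta cells and Kcnj11 at 14.5 ± 9.20 and 28.2 ± 5.26 FPKM (limma adjusted p = 0.0849 and 0.0838), and both were called higher in delta cells when alpha sample 5 was left out, at 0.0266 and 0.00986. Abcc8 was also called without delta sample 2 (limma adjusted p = 0.032).

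Ligand-gated channels were called in 6 of 14 cases, 4 higher and 2 lower (28.6% and 14.3%, and 4 and 4 with quantile normalization). The acid-sensing channel Accn1 (Asic2) was at 0.361 to 0.778 FPKM in alpha samples and 6.96 to 15.6 FPKM in delta samples (3.05, SE 0.237, limma adjusted p = 3.83e-07). The glutamate receptor subunit Grin1 (2.22) and Accn2 (Asic1, 1.30) were among the others that were higher. The AMPA receptor subunit Gria3 (-1.90) and the glycine receptor subunit Glrb (-1.58) were lower, both with overlap, and Glrb was not called in 4 alternatives, which included leaving out alpha sample 1, 2 or 3 (limma adjusted p = 0.0563, 0.0639 and 0.0572). All 7 calls among 28 TRP, chloride and connexin family channels were toward delta cells (25%). Trpa1, an irritant-sensing cation channel, was at 0, 0, 0.104, 0.00763 and 0.0898 FPKM in alpha samples and 2.38 to 6.42 FPKM (median 5.18) in delta samples (2.41, SE 0.248, limma adjusted p = 7.98e-06). Panx1 (2.52), Lrrc8b, a subunit of volume-regulated anion channels (2.31), and Trpm3 (1.99) showed the same separation.

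Of 26 amino acid transporters 5 were higher in delta cells and 3 lower (19.2% and 11.5%). They became 4 and 4 with median-ratio size factors and 2 and 4 with quantile normalization. Slc7a2, a cationic amino acid transporter that carries arginine, was at 122, 110.4, 55.1, 110.3 and 257 FPKM in alpha samples and 3.11 to 7.33 FPKM (median 4.08) in delta samples, 28.2-fold higher in alpha cells (-4.43, SE 0.403, limma adjusted p = 2.31e-06). Slc38a4 (-2.44) and Slc3a2, the shared heavy chain of several amino acid exchangers (-1.59), were lower in delta cells too. The taurine transporter Slc6a6 (1.76, not called in 8 alternatives, limma adjusted p from 0.00736 to 0.082 over the 21) and Slc38a11 (1.65) were higher. Of 126 other solute carriers 18 were higher and 4 lower (14.3% and 3.17%), and 13 and 6 with quantile normalization. The largest of the former were the monocarboxylate transporter Slc16a7 (2.66, SE 0.331, limma adjusted p = 5.74e-05), Slc22a18 (2.52) and the nucleoside transporter Slc29a1 (2.01). Slc40a1, the iron exporter ferroportin, was at 17.04, 19.3, 8.28, 7.97 and 11.02 FPKM in alpha samples and 0.248 to 0.697 FPKM (median 0.470) in delta samples (-3.13, SE 0.381, limma adjusted p = 4.60e-05). Slc35d3 (-2.12), the fatty acid transporter Slc27a2 (-1.93) and the magnesium carrier Slc41a2 (-1.53) were also lower in delta cells. Of 35 mitochondrial carriers 1 was called (2.86% lower and 0% higher, near the 1.54% and below the 5.62% of all genes tested), Mcart6 (Slc25a53), which was lower in delta cells (-1.62, SE 0.380, limma adjusted p = 0.0132). Median-ratio size factors called 0 of these carriers higher and 2 lower, and quantile normalization 1 and 3.

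Of 64 genes of glucose sensing and pyruvate metabolism 4 were higher (6.25%, near the 5.62% of all genes tested) and 2 lower (3.12%, against 1.54%). These counts became 6 and 4 under median-ratio size factors, 5 and 6 under quantile normalization and 7 and 2 with the sample set as a covariate. Within them Pdk4, the kinase that shuts the pyruvate dehydrogenase complex, had the smallest adjusted p of all genes named here. It was at 96.1, 90.3, 70.4, 143 and 150.4 FPKM in alpha samples and 0.0524 to 0.895 FPKM (median 0.149) in delta samples, 361-fold higher in alpha cells (-6.39, SE 0.269, limma adjusted p = 8.99e-10). Every alpha sample was above every delta sample. The glucose transporters Slc2a1 (1.32, SE 0.258, limma adjusted p = 0.00345) and Slc2a3 (1.34, SE 0.349, limma adjusted p = 0.0246, lost in 3 alternatives) and the mitochondrial malic enzyme Me3 (1.23) were higher in delta cells. Among 52 members of a lipid list 7 were higher and 4 lower (13.5% and 7.69%). Of the 4, Galnt13 acts on proteins rather than lipids. Hadh, a dehydrogenase of fatty acid oxidation, was at 8.06, 9.19, 10.8, 1.88 and 4.61 FPKM in alpha samples and 50.9 to 172 FPKM (median 99.6) in delta samples (3.83, SE 0.530, limma adjusted p = 0.00016). The thioesterase Acot7 (2.78), the ligase Acsl6 (2.02) and the fatty acid binding protein Fabp5 (1.74) were higher as well. Lpl, the lipoprotein lipase, was at 52.7, 28.3, 31.2, 44.2 and 84.1 FPKM in alpha samples and 0.664 to 1.32 FPKM (median 0.997) in delta samples (-4.52, SE 0.475, limma adjusted p = 9.76e-06). Galnt13, which begins O-linked glycosylation (-4.01), and Ugt8a, which makes galactosylceramide (-2.54), were lower in delta cells. Transthyretin (Ttr), the carrier of thyroxine and of retinol-binding protein, was at 14071, 18658, 16366, 10428 and 18704 FPKM in alpha samples and 44.0 to 124.5 FPKM (median 72.0) in delta samples, 213-fold higher in alpha cells (-7.76, SE 0.504, limma adjusted p = 7.57e-08). Its partner Rbp4 was at 655 ± 346 FPKM in alpha and 1426 ± 968 FPKM in delta cells (limma adjusted p = 0.365). Of the 13 retinoid genes 2 were higher and 2 lower in delta cells (15.4% each), and 1 and 2 with either other scaling. Caveolin (Cav1), the coat protein of caveolae, was at 15.6, 25.1, 10.2, 3.93 and 27.9 FPKM in alpha samples and at most at 0.140 FPKM in delta samples (-3.84, SE 0.371, limma adjusted p = 4.21e-06), while Pacsin3 was higher in delta cells (1.23, lost in 3 alternatives). The remaining 7 of the 9 measured caveolae genes were not called.

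The machinery of exocytosis was called in 13 of 71 cases, 7 higher and 6 lower (9.86% and 8.45%, against 5.62% and 1.54% of all genes tested, and 6 and 8 with quantile normalization), with a median of 0.14 like that of all genes tested. Rab3b, a small GTPase of secretory vesicles, was at 17.2, 19.1, 14.8, 13.5 and 25.8 FPKM in alpha samples and 131 to 231 FPKM (median 179) in delta samples (3.27, SE 0.385, limma adjusted p = 3.22e-05). The calcium sensors Syt1 (1.99) and Syt5 (1.53) and the active zone gene Erc2 (1.55) were higher too. In the other direction, the vesicle glycoprotein Sv2b was at 19.4, 18.4, 21.6, 9.52 and 20.2 FPKM in alpha samples and 0.0477 to 0.457 FPKM (median 0.128) in delta samples (-3.95, SE 0.273, limma adjusted p = 1.26e-07). Mctp2 (-2.87) and Cadps, the priming factor CAPS (-2.31), were also lower in delta cells without overlap.

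Axon guidance and synaptic adhesion genes gave 21 higher and 5 lower of 70 (30% and 7.14%, and 18 and 8 with quantile normalization), with a median difference of 0.90. The neural cell adhesion gene Ncam2 was at 22.1 ± 10.5 FPKM in delta and 0.737 ± 1.06 FPKM in alpha cells (3.76, SE 0.390, limma adjusted p = 8.84e-06). Lingo1 (3.69), the ephrin Efnb3 (2.93) and Slitrk6 (2.62) separated all samples in the same direction. Lrrtm3 was at 10.1, 11.4, 11.8, 13.7 and 9.24 FPKM in alpha samples and 0 to 0.977 FPKM (median 0.348) in delta samples (-3.15, SE 0.239, limma adjusted p = 3.04e-07). Igsf21 (-2.92) and the netrin Ntn4 (-2.21) were lower in delta cells as well. Neuronal cytoskeleton and neuroendocrine markers followed with 13 higher and 3 lower of 49 (26.5% and 6.12%, median 0.82). Gap43, a growth cone protein gene, was at 0, 0.372, 0.470, 0 and 2.84 FPKM against 12.1 to 72.8 FPKM (median 24.7) (4.16, SE 0.423, limma adjusted p = 7.33e-06), and Ly6h (3.39) and Nsg1 (2.78) were higher in delta cells. The 3 exceptions included 2 monoamine enzymes, while Th, which begins catecholamine synthesis, was higher in delta cells (1.71, SE 0.418, limma adjusted p = 0.0169, lost with the replicate block). Ddc, which makes dopamine and serotonin from their precursors, was at 85.5, 94.9, 116, 94.7 and 102 FPKM in alpha samples and 1.42 to 9.20 FPKM (median 5.43) in delta samples (-4.09, SE 0.471, limma adjusted p = 2.68e-05). Maob, which breaks monoamines down, was at 27.9, 27.2, 27.6, 22.2 and 35.6 FPKM against 1.03 to 4.88 FPKM (median 2.43) (-3.11, SE 0.390, limma adjusted p = 6.07e-05). Elavl2 was the remaining one (-1.72). With quantile normalization the medians of these lists were 0.58 and 0.61.

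Cadherins, claudins, integrins and basement membrane genes gave 8 higher and 4 lower of 44 (18.2% and 9.09%, against 5.62% and 1.54% of all genes tested). Either other scaling gave 7 and 7, where more of all genes tested were also called lower (343 and 491 against 212). Pcdh15 (2.51, SE 0.429, limma adjusted p = 0.00113), E-cadherin (Cdh1, 2.13) and Itgb6 (2.17, limma adjusted p = 0.0507 without delta sample 3) were higher in delta cells, and Egflam (-2.80, SE 0.321, limma adjusted p = 2.64e-05), Cdh9 (-2.08) and nidogen (Nid1, -2.15) were lower. Col1a2, a fibrillar collagen gene of fibroblasts, was lower in delta cells (-1.52), with the whole mesenchymal marker list summing to 1.93 to 4.95 FPKM in alpha and 0.289 to 1.22 FPKM in delta samples. Its part in the basement membrane values was not tested.

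Of 56 measured genes of the Wnt, Notch, Hedgehog, BMP and TGF-beta pathways 12 were higher in delta cells and 5 lower (21.4% and 8.93%). They became 11 and 6 with median-ratio size factors and 9 and 7 with quantile normalization. Frzb was at 1.06, 1.40, 0.439, 0.844 and 2.35 FPKM in alpha samples and 42.9 to 95.6 FPKM (median 76.4) in delta samples (5.10, SE 0.417, limma adjusted p = 6.21e-07). The BMP ligands Bmp3 and Bmp6 were at 13.1 to 38.6 FPKM and 2.41 to 9.41 FPKM in delta samples against 0.236 to 1.08 FPKM and 0 to 0.126 FPKM in alpha samples (4.11 and 2.60). Fstl5 (4.48) and Dlk1, a membrane protein related to Notch ligands (4.45), were higher without overlap. Alpha cells were higher in Wnt4, at 6.06, 7.67, 3.66, 23.2 and 23.2 FPKM against 0.269 to 1.48 FPKM (median 0.453) in delta samples (-2.82, SE 0.406, limma adjusted p = 0.000229), in Hhatl (-3.90) and in the Wnt antagonist Sfrp5 (-1.59). Among 39 growth factor genes 8 were higher and 2 lower (20.5% and 5.13%). The counts became 8 and 4 with median-ratio size factors and 7 and 7 with quantile normalization. Hgf and its receptor Met were both higher in delta cells, Hgf at 7.29 to 13.3 FPKM against 0.260 to 0.689 FPKM (3.03, SE 0.226, limma adjusted p = 2.54e-07) and Met at 9.83 to 30.9 FPKM against 1.44 to 7.67 FPKM (2.27, SE 0.422, limma adjusted p = 0.00227). The receptor phosphatase Ptprz1 (2.71) followed. Gfra3, the artemin co-receptor, was at 18.3, 18.6, 13.1, 10.7 and 16.2 FPKM in alpha samples and 0.114 to 0.794 FPKM (median 0.227) in delta samples (-3.65, SE 0.236, limma adjusted p = 7.57e-08), and the stem cell factor receptor Kit was also higher in alpha cells (-1.73).

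Of 53 peptidases and their inhibitors 9 were lower in delta cells (17%) and 13 higher (24.5%), against 1.54% and 5.62% of all genes tested, and 10 were called each way with quantile normalization. Fap, a membrane dipeptidyl peptidase, was at 62.9, 44.3, 38.6, 24.7 and 12.3 FPKM in alpha samples and 0 to 0.267 FPKM (median 0.0224) in delta samples (-4.94, SE 0.591, limma adjusted p = 3.67e-05). Tmem27 (Cltrn), a membrane glycoprotein gene, was 10.3-fold higher in alpha cells with overlap and lost its call in 6 alternatives (-3.15, SE 0.801, limma adjusted p = 0.0219, range 0.00204 to 0.0717 over the 21). Toward delta cells, Dpp6 was at 1.81, 9.51, 0.249, 1.06 and 4.02 FPKM in alpha samples and 11.2 to 48.9 FPKM (median 42.5) in delta samples (3.42, SE 0.489, limma adjusted p = 0.000217), and Adam22 was 7.76-fold higher (2.98, SE 0.472, limma adjusted p = 0.000572). The elastase Cela1 was at 48.9 ± 36.4 FPKM in delta and 3.55 ± 3.90 FPKM in alpha cells (3.52, SE 0.634, limma adjusted p = 0.00175). It belongs to a list of acinar cell markers, of which 13 were measured, 2 were called and all 13 had positive differences. The summed FPKM of that list was 9.77 to 128 in alpha samples and 94.2 to 788 in delta samples, and its part in the values of Cela1 was not tested.

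Imprinted genes, which are expressed from the allele of 1 parent, were called in 13 of 37 cases, 8 higher and 5 lower (21.6% and 13.5%). Nnat (chr2:157560078-157562522, plus strand) lies within Blcap (chr2:157556362-157571274, minus strand). Nnat was at 1.87, 3.37, 8.97, 1.82 and 6.55 FPKM in alpha samples and 209 to 449 FPKM (median 334) in delta samples (6.02, SE 0.557, limma adjusted p = 2.76e-06), while Blcap was 2.85-fold higher (1.46, SE 0.336, limma adjusted p = 0.0118). As the libraries are not stated to keep strand, reads within the shared stretch cannot be told apart. Nespas, an antisense transcript of the Gnas locus (chr2:174281237-174295436), was at 0.0883, 0.117, 0, 0.313 and 0.172 FPKM in alpha samples and 28.4 to 52.6 FPKM (median 43.6) in delta samples (5.19, SE 0.248, limma adjusted p = 3.09e-09), with the same limit for the genes it overlaps. Rasgrf1, an exchange factor of Ras (4.20), Mest (3.57) and Dlk1 were also higher in delta cells. Nap1l5 (-2.65, SE 0.454, limma adjusted p = 0.00114), Grb10, an adaptor that restrains insulin and IGF receptors (-2.56, SE 0.515, limma adjusted p = 0.00436), and the retrotransposon-derived Peg10 (-2.33, SE 0.397, limma adjusted p = 0.0011) were lower, each without overlap.

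Nuclear receptors were called in 4 of 25 cases, 2 higher and 2 lower (8.0% each, against 5.62% and 1.54% of all genes tested). Nr1d1, the clock repressor Rev-erb-alpha, was at 1.47, 2.29, 1.93, 3.88 and 6.13 FPKM in alpha samples and 24.7 to 54.3 FPKM (median 39.0) in delta samples (3.32, SE 0.335, limma adjusted p = 7.33e-06), and the orphan receptor Nr4a2 was lower in delta cells (-2.56, SE 0.334, limma adjusted p = 8.70e-05). The hours at which islets were taken are not given in the sources used here. Of 36 immediate early and stress genes 3 were higher and 2 lower (8.33% and 5.56%, and 3 and 3 with quantile normalization). The small heat shock gene Hspb1 was at 12.1 to 22.3 FPKM in delta and 0.402 to 1.35 FPKM in alpha samples (3.35, SE 0.242, limma adjusted p = 1.72e-07), Cyr61 (Ccn1) was listed at 0 in 4 of the 5 alpha samples and was higher in delta cells (1.45), and Egr1 (1.81) and Gadd45b (-1.13) were called in opposite directions but not in 7 and 11 of the alternatives, where limma adjusted p ran from 0.00308 to 0.0857 and from 0.00657 to 0.126 over all 21.

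Several relatives were called in opposite directions, while others, such as Bmp3 and Bmp6 or Adcy8 and Adcy2, were called in the same direction. Beside Avpr1a and Avpr1b, Sstr1 and Sstr2, and Kcnip1 and Kcnip3, those called in opposite directions included Rab3b (3.27) and Rab3c (-1.13), Gfra2 (1.48) and Gfra3 (-3.65), the neurexins Nrxn2 (1.82) and Nrxn3 (-1.86), the A-type channel partners Dpp6 (3.42) and Dpp10 (-2.09), the amino acid transporters Slc38a11 (1.65) and Slc38a4 (-2.44), the inward rectifiers Kcnj13 (1.90) and Kcnj3 (-1.29), and the retinoid receptors Rarg (1.2003) and Rxra (-1.47). The relatives were not equally firm. Rab3c lost its call in 13 of the 21 alternatives, Rarg in 5, Nrxn3 in 3 and Gfra2 in 1. Without alpha sample 3 the limma adjusted p of Nrxn3 was 0.0698, and over the alternatives that tested them those of Rab3c and Rarg ran from 0.00342 to 0.175 and from 0.00609 to 0.0779. Dpp6 and Kcnip1, both partners of A-type potassium channel pores, were higher in delta cells along with the pore Kcnd2, whereas Dpp10 and Kcnip3 were higher in alpha cells. In alpha cells Dpp10 was at 24.0, 20.7, 29.6, 7.83 and 21.5 FPKM and Kcnip3 at 6.99, 27.0, 4.71, 12.7 and 12.4 FPKM, against 1.86 to 9.61 FPKM (median 3.39) and 0.275 to 1.38 FPKM (median 0.492) in delta samples.

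**Figure D5:**
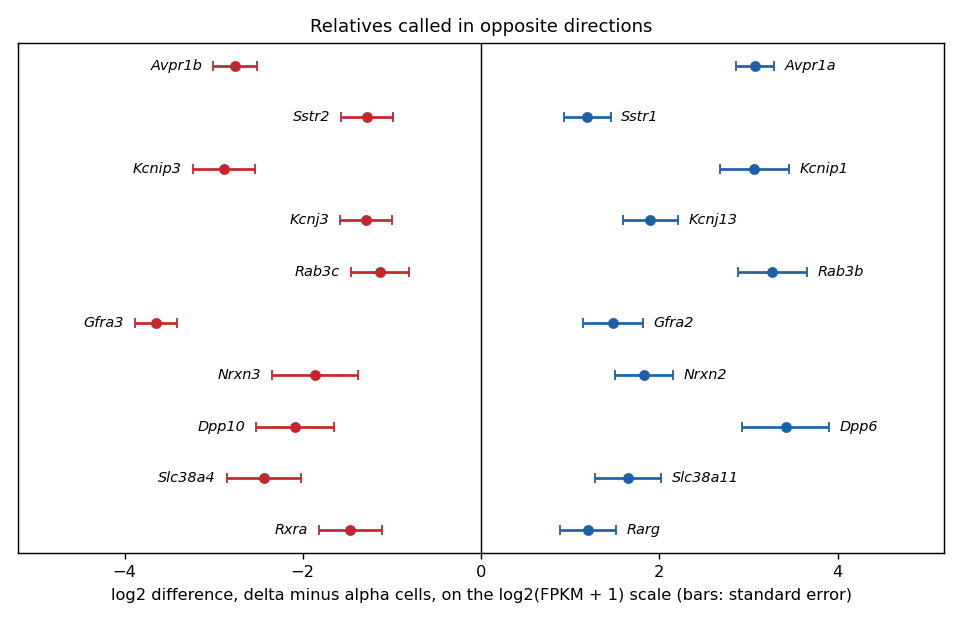
Difference between delta and alpha cells on the log2(FPKM + 1) scale for 10 pairs of related genes, with 1 pair per row and bars of 1 standard error. Blue points are the members higher in delta cells and red points the members lower in delta cells. The pairs were chosen for calls in opposite directions, so each lies on both sides of 0. They run from Avpr1a at 3.07 and Avpr1b at -2.76 in the top row to Rarg at 1.2003 and Rxra at -1.47 in the bottom row.

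Housekeeping programmes gave no limma calls. None of 54 genes of endoplasmic reticulum folding and the unfolded protein response was called (4 at an unadjusted p below 0.05, median -0.06), none of 97 nuclear genes of oxidative phosphorylation (2 at an unadjusted p below 0.05, median -0.41) and none of 79 ribosomal protein genes (6 at an unadjusted p below 0.05). For these lists the median-ratio scaling called 1, 1 and 3 genes, all lower in delta cells. Quantile normalization called 1 folding gene higher and 1 lower and 1 oxidative phosphorylation gene lower, and the fit with the sample set as covariate called 1 and 2 genes of these lists, all higher. Ribosomal protein genes had a median of -1.07, with 78 of the 79 differences negative, and medians of -0.76 and -0.53 within the sets of samples with high and low ribosomal sums. The oxidative phosphorylation median was -0.10 and 0.03 within those sets. Of 7 ductal markers only Sox9 was called (1.12, at 0.112 to 2.33 FPKM in delta samples), of 2 measured endothelial markers only Egfl7 (2.66), and none of 4 leukocyte or 2 glial markers was called. The ductal list summed to 71.8 to 276 FPKM in alpha and 139 to 436 FPKM in delta samples, and its part in other values was not tested. The endothelial list summed to 1.54 to 5.38 FPKM in alpha and 10.2 to 29.8 FPKM in delta samples, and the leukocyte list to 16.3 to 33.3 and 23.4 to 47.7 FPKM.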

How the data were processed

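Per the submitters' processing notes and the study's methods, the authors aligned reads of amplified RNA to GRCm38 with TopHat2 (2.0.8 in the notes) and ran Cufflinks 2.2.1, whose deposited FPKM cover 38283 genes and are set relative to transcript length and library size. The annotation release is not given in the sources used here, and neither the kit nor the notes state that strand was kept. The authors used edgeR on counts, which were not used here. FPKM are not counts, so log2(FPKM + 1) was fitted with limma 3.58.1 in R 4.3.3 (lmFit, then eBayes with a trend). All 15 samples entered 1 fit with a mean per cell type and no covariate, so beta samples shaped only the spread. Genes needed a mean above 1 FPKM in alpha or delta cells (13792), p values were adjusted over these by Benjamini-Hochberg, and 0.05 was the limit of a call. The p values measure the spread between these samples.

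The scripts were tested on simulated data with known changes, where most were recovered and false calls made up a larger share of the calls than the limit of 0.05. Single receptors were also tested by exact permutation of the samples. The table gives no read totals. Low values of genes with 1 transcript fell on steps of single reads in 6 of the 11 samples, by limits set after the values were seen, and imply 7.47 M to 30.5 M reads. Whole reads could not be recovered (30.9% to 52.6% of the low values within 0.1 of a whole read), so no count test and no floor of detection is given, and 0 means listed at 0.

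The members and gene lists were chosen with earlier results of these data known. Named genes are Sst and Gcg, the 15 called protein-coding genes with the largest differences in each direction without overlap, up to 6 called members of each list in each direction, all members of lists of at most 12, relatives called in opposite directions and receptors the study names. Kcnh2, Kcnh7, Th, 4 factors of all islet cells (Isl1, Pax6, Nkx2-2, Neurod1), Pcsk2, Rbp4, Pyy, Ins1, Xist, Eif2s3y and the channel subunits Abcc8 and Kcnj11 were chosen after their values were seen. Some genes that this rule selects are not reported here. Symbols are those deposited, with current ones in brackets. Coordinates are from GENCODE M21 (GRCm38, 36341 of the 38283 genes matched by Ensembl identifier) and promoters from RefSeq GRCm38.p6 (8485 of the 13792 tested genes matched). Remaining steps used Python 3.11.15, numpy 2.4.6, pandas 2.3.3, SciPy 1.17.1 and matplotlib 3.10.9.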

Additional observations from a re-analysis of the deposited data

Results flagged for a closer look

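For 408 sets of replicate values (each gene given with a value, in alpha or in delta cells) the gap between the outermost sample and its neighbour was compared with the whole range on the log2(FPKM + 1) scale by Dixon's criterion. In 42 of them 1 sample stood apart, where chance gives about 20.4 if values are normal. A set listed at 0 in all samples but 1 is flagged whatever that value is, as for Ghrl in alpha and Sstr5 in delta samples. The excess over 20.4 was therefore not tested. The values are in FPKM. Alpha sample 1 was high in Adra2a (1.56), Gucy2c (1.38) and Trpm3 (0.222). Alpha sample 2 was high in Hhex (2.55) and Acot7 (1.04). Alpha sample 3 was high in Ghsr (0.544), Sstr1 (0.359) and Ly6h (2.57) and was low in Sstr2 (0.549), Pcdh15 (0.833) and Grb10 (8.45). Alpha sample 4 was high in Ghrl (0.374) and Cyr61 (0.0130) and was low in Gnai1 (20.5), Mcart6 (9.26), Sv2b (9.52) and Dpp10 (7.83). Alpha sample 5 was high in Pcsk6 (2.24), Adcy8 (0.0894), Gap43 (2.84), Cd44 (1.39) and Sox9 (0.0114). Delta sample 1 was high in Pax6 (95.8) and Col1a2 (0.0576). Delta sample 2 was high in Slc2a3 (14.6), Hhatl (0.0732) and Gfra3 (0.794) and was low in Pde7b (3.85), Abcc8 (38.1), Accn1 (6.96), Rxra (0.636), Dpp6 (11.2) and Cd44 (12.7). Delta sample 3 was high in Sstr5 (0.218). Delta sample 4 was high in Ffar3 (0.102) and Slc35d3 (0.272) and was low in Gpr179 (13.9). Delta sample 5 was high in Chrm4 (8.91), Cav1 (0.140) and Nid1 (0.270). Delta sample 6 was high in Ntn4 (0.558) and was low in Hhex (42.1). Delta sample 2 had the most such values (9), followed by alpha samples 3 and 4 (6 each). Among genes the comparisons rest on, the lower values of alpha sample 3 for Sstr2 and of delta sample 2 for Dpp6 and Cd44 left the direction of each difference as it was when that sample was left out, and all 3 remained called.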

How the results depend on the processing

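Under 21 alternatives the number of called genes stayed within 1.5 times of 987, except with a filter of 5 FPKM, which tested fewer genes and gave 508 calls (374 higher in delta cells). Of the called genes, 21.5% were lower in delta cells (212 genes), against 26.4% with the 5 FPKM filter, 32.2% with median-ratio size factors (343 genes) and 44.2% with quantile normalization (491 genes), and the cause was not tested. Leaving out 1 sample gave 858 to 1218 calls, with 649 to 994 higher and 188 to 252 lower, and the most when alpha sample 5 was left out. Of the 987 genes, 609 were called in every alternative that tested them and 378 were lost in at least 1.

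Same-numbered alpha and delta samples came from different mouse lines, and the labels name no sort, litter or batch that they share, so the numbers were not treated as pairs. Their deviations from the group means correlated at 0.12, 0.28, -0.12, 0.07 and 0.25 for numbers 1 to 5, and 4 of the 10 samples correlated best with their own number. Numbers 1 and 2 lie in the high and 4 and 5 in the low ribosomal set in both cell types. A fit with the replicate block called 860 genes, 795 of them among the 987, and did not call Vgf, Gpr84, Scn9a, Glrb, Pacsin3, Nrxn3, Rab3c, Tmem27, Gadd45b, Kcnh2 and Th (limma adjusted p = 0.0513 to 0.117).

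Of 185 called genes named with values, 163 kept their call in every alternative and 22 lost it in at least 1, and none of the 202 tested reversed. Leaving out 1 sample ended the calls of Chgb (alpha 1 to 3, delta 3 to 6), Scg2 and Slc6a6 (alpha 1 to 3, delta 3 to 5), Vgf (alpha 2), Gpr84 (alpha 1 to 4, delta 1 and 6), Scn9a (alpha 2 to 4, delta 3 to 6), Glrb and Rarg (alpha 1 to 3), Nrxn3 (alpha 3), Kcnh2 (alpha 1 to 3, delta 1 and 3 to 6), Itgb6 (delta 3), Rab3c (alpha 1, 4 and 5, delta 1 to 3 and 6), Tmem27 (alpha 1 to 3, delta 5 and 6), Egr1 (alpha 1, 2 and 4, delta 1 and 3 to 5) and Gadd45b (alpha 2, 3 and 5, delta 3 to 6), and the largest adjusted p among these fits of limma was 0.136 (Chgb without alpha sample 3). Other alternatives alone ended the calls of Sstr1, Gfra2, Pacsin3, Slc2a3, Sox9, Kcnh7 and Th. Of 17 named genes that were not called, Neurod1, Abcc8, Kcnj11 and Rbp4 were called in at least 1 alternative. The reads behind genes near 1 FPKM are not known, and a difference that was not called may lie below what these samples can show.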

Other observations

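Genes outside the lists also differed, and those given here were chosen after their values were seen. Acat1, a mitochondrial thiolase of ketone body and isoleucine breakdown, had 146, 129, 224, 51.6 and 56.4 FPKM in alpha samples 1 to 5 and 10.2 to 20.3 FPKM (median 13.5) in delta samples (-2.81, SE 0.470, limma adjusted p = 0.000934). Oat, the mitochondrial ornithine aminotransferase, had 15.5, 40.4, 13.97, 11.04 and 10.2 in alpha samples and 0.906 to 3.38 FPKM (median 1.55) in delta samples (-2.63, SE 0.343, limma adjusted p = 8.70e-05). Adh1, an alcohol dehydrogenase, had 16.5, 28.1, 14.6, 10.9 and 21.1 and 0.181 to 4.18 FPKM (median 0.981) (-3.03, SE 0.428, limma adjusted p = 0.000196).

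Hapln1, a link protein of hyaluronan matrix, was lower in delta cells (-3.30, SE 0.420, limma adjusted p = 6.82e-05). Its values were 32.5, 40.2, 42.1, 9.19 and 23.4 in alpha samples and 0.867 to 2.998 FPKM (median 1.75) in delta samples. Cbln4, a secreted cerebellin that binds synaptic adhesion proteins, was higher in delta cells, with 0.0375, 0.164, 0.613, 0 and 0.0169 in alpha samples and 3.19 to 19.1 FPKM (median 9.08) in delta samples (3.03, SE 0.336, limma adjusted p = 1.71e-05). Ngb, the neuronal globin, was higher as well (2.59, SE 0.351, limma adjusted p = 0.000131), with 0.169, 0.201, 0.252, 0 and 0 and 2.59 to 14.3 FPKM (median 4.83). Neither Cbln4 nor Ngb overlapped between the groups.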
